A study of Apis mellifera with 6 samples.

Results

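The hypopharyngeal gland lies as a pair in the head of the worker honeybee, Apis mellifera. In nurse bees it secretes the protein-rich food given to larvae and the queen, and a small set of transcripts for secreted proteins is known to make up much of its RNA. The gland is known to be large in bees that eat pollen and tend brood, and in older foragers to turn to enzymes that process nectar. The 47 gene models described here are the most abundant in these glands outside a tandem region on linkage group 11 (2563562 to 2614036). They were chosen by level among 10704 models. A model was taken if its ID was made of a gene number, if it reached 10000 counted fragments in at least 1 of 6 libraries, if it was above 0 in all 6, and if it lay outside that region. Of 58 models that reached 10000 fragments, 2 were models added by the authors, 7 lay in the tandem region and 2 were listed at 0 in some library, which left 47. All 47 passed the filter on low counts.

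Dissected glands of worker bees gave 6 RNA libraries, 2 for each of 3 groups, and each library stands for 1 colony. The Brood group was fed honey and abundant rape pollen and its queens laid freely. The Pollen group had the same food, and the Honey group had honey only, and in both the queens were caged so that the brood shrank. The sample labels give ages of 13 and 14 days for Brood 1 and 2, 9 and 10 days for Pollen 1 and 2, and 11 and 12 days for Honey 1 and 2, whereas the text of the series speaks of bees of 9 days throughout. By the sample labels, age and group cannot be told apart. Library totals ran from 2764870 to 4153354 fragments. The files do not pair the IDs with gene names and 0 of 10704 IDs matched the reference table, so models are given by ID or by position in the files' coordinates, no role is given to any of them, and the gland could not be checked against marker genes. In whole glands, fewer cells of a type and less RNA per cell cannot be told apart.

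The 47 abundant models together held 35.6% to 41.0% of the counted fragments in every library, but one of them, gene5402, held a larger part of it in Brood. The 47 held 41.0% and 38.7% of fragments in Brood 1 and 2, 35.6% and 38.3% in Pollen 1 and 2, and 36.8% and 40.1% in Honey 1 and 2. The group means were 39.9% ± 1.63 in Brood, 37.0% ± 1.91 in Pollen and 38.5% ± 2.31 in Honey (SD, n = 2 each). Honey overlapped both other groups, while both Brood libraries were above both Pollen libraries. Counting error was small beside this spread: in Honey 2, the shallowest library, the Wilson 95% interval was 40.0% to 40.2%. Intervals of this kind cover counting error only.

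The model gene5402 lies on the plus strand of linkage group 6, at 15407272 to 15408113, and is listed with 237 bases. It held 25.1% and 23.4% of fragments in Brood, 16.0% and 14.7% in Pollen, and 12.0% and 13.3% in Honey. Every Brood library was above every Pollen library, and every Pollen library above every Honey library. As a share of all fragments, the other 46 ran the other way. They held 15.9% and 15.3% of fragments in Brood, 19.7% and 23.6% in Pollen, and 24.9% and 26.9% in Honey, again with no overlap between groups. Because the level chose these models, the shares are a description. With 2 libraries a group, an exact permutation test cannot give a p below 0.333.

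**Figure D1:**
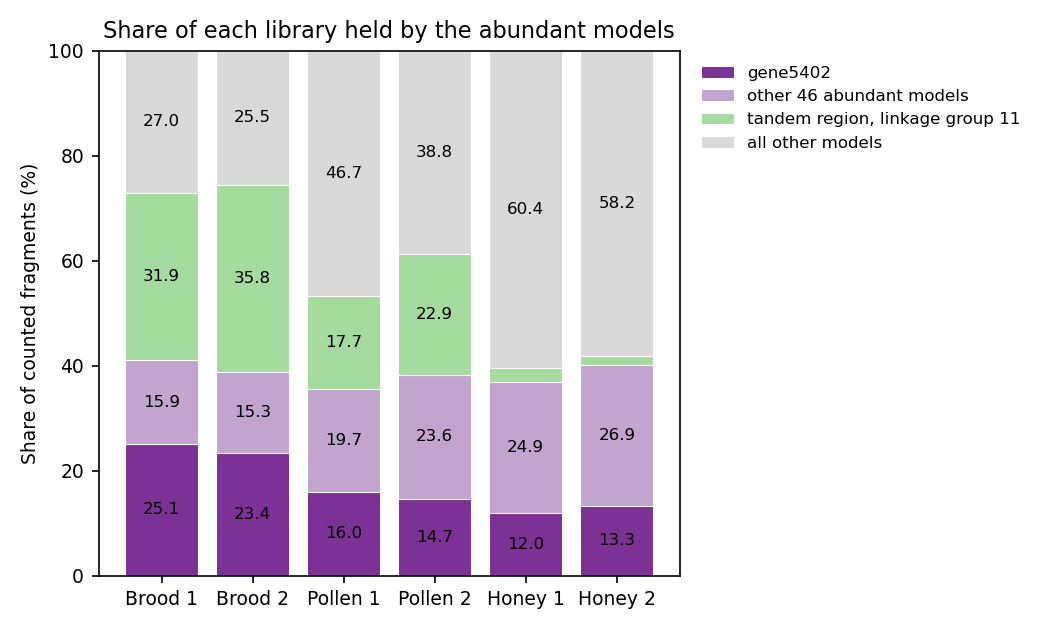
Share of counted fragments (%) in each library, as stacked bars from 0 to 100. The darkest segment is gene5402, the next the other 46 abundant models, then the tandem region on linkage group 11 and all other models. The 2 lowest segments together reach 35.6% to 41.0% in every library, while gene5402 takes 23.4% to 25.1% in Brood and 12.0% to 16.0% in the other libraries.

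The share of a library also depends on what else it holds. The tandem region, which is not among the 47, held 31.9% and 35.8% of fragments in Brood, 17.7% and 22.9% in Pollen, and 2.71% and 1.65% in Honey. Out of the fragments outside that region, the 47 held 60.3% ± 0.0168 in Brood, 46.5% ± 4.56 in Pollen and 39.3% ± 2.06 in Honey (SD, n = 2 each). On this denominator gene5402 held 36.7% ± 0.335 in Brood, 19.2% ± 0.237 in Pollen and 12.9% ± 0.839 in Honey. The rest of the 47 did not keep on it the order they had as a share of all fragments. For them, Pollen 1 lay below both Honey libraries and Pollen 2 above both. In Pollen 1, a further 12.7% of fragments belonged to models outside the region that were left out because they were listed at 0 in some library, against 0.765% in Brood 1, 0.151% in Brood 2 and none in the other 3 libraries. The part of that library's value in the Pollen shares was not tested.

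Per length, gene5402 stood out further. The deposited FPKM values, which are fragments scaled by model length, summed to shares for the 47 of 87.0% ± 0.643 in Brood, 83.0% ± 0.524 in Pollen and 81.7% ± 1.47 in Honey (SD, n = 2 each). The model gene5402 alone took 76.9% ± 0.511, 67.7% ± 0.507 and 65.4% ± 1.45 of the summed FPKM in Brood, Pollen and Honey. Its deposited FPKM was 3.02 to 3.45 times what its fragments and listed 237 bases would give on the scale of models of 2000 bases or more, so this share rests on the length the authors used for it, which the headers do not state.

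The ranks of the 47 also differed between groups. These ranks are a description, because the rule chose the models by fragments. Its minimum was reached in Honey libraries alone by 20 models, in Pollen alone by 3 and in Brood alone by 1. Models of the tandem region were ranked with the 47. That region held on average 33.9% of fragments in Brood, 20.3% in Pollen and 2.18% in Honey. The part of either in the ranks was not tested. By fragments, 6 and 6 of the 47 were among the 10 most abundant of all models in Brood 1 and 2, 4 and 5 in Pollen 1 and 2, and 9 and 9 in Honey 1 and 2. Among the 50 most abundant models they were 25 and 24 in Brood, 31 and 32 in Pollen, and 39 and 38 in Honey. Their median rank was 43 and 48 in Brood, 33 and 31 in Pollen, and 26 and 26 in Honey. The 10 of the 47 with most fragments were also taken in each library separately, so they need not be the same models. They held 36.0% ± 1.36 of fragments in Brood, 29.4% ± 1.60 in Pollen and 26.7% ± 1.44 in Honey (SD, n = 2 each). The 37 left in each library thus had the largest part in Honey.

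**Figure D2:**
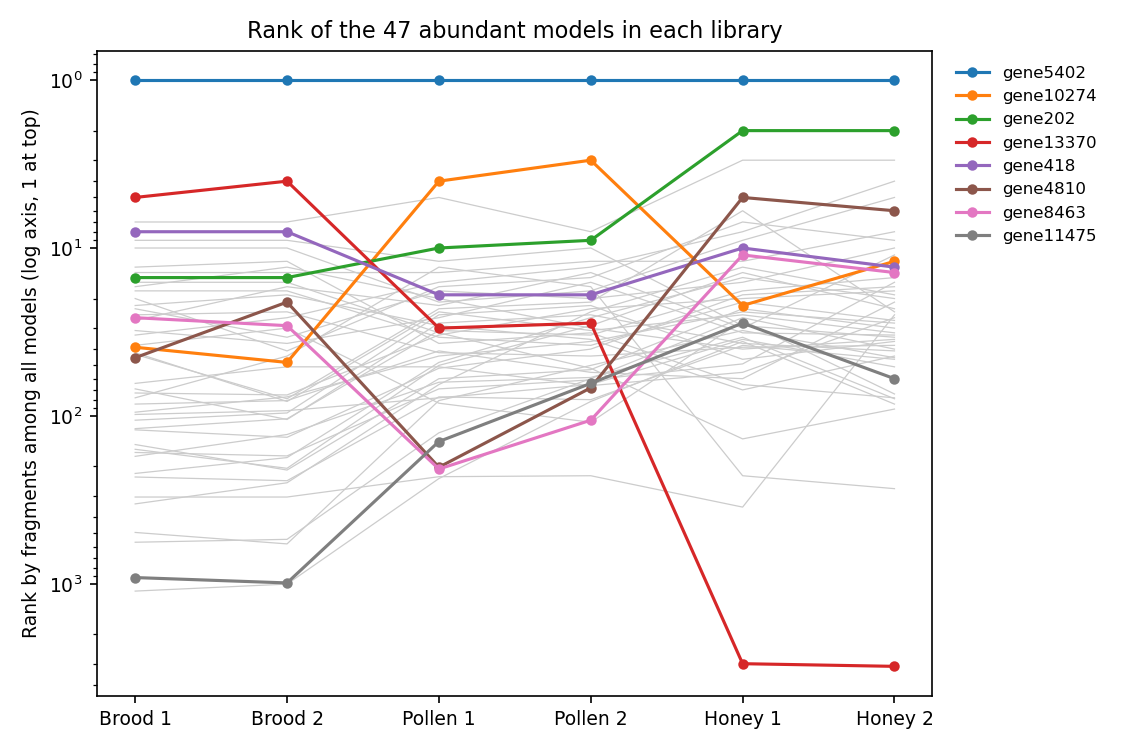
Rank by fragments of each of the 47 abundant models among all models, per library, on a log axis with rank 1 at the top. Colored lines are the 8 models given by ID and grey lines the other models, and lines join the same model across libraries without implying an order of replicates. The model gene5402 is at rank 1 in all 6 libraries, while gene13370 is at ranks 5 and 4 in Brood and 2987 and 3098 in Honey.

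Of the 47, 40 reached 10000 fragments in at least 1 Honey library, against 25 for Pollen and 12 for Brood. The minimum of 10000 fragments was reached by 12 of them in Brood 1 and 11 in Brood 2, 23 and 18 in Pollen 1 and 2, and 36 and 26 in Honey 1 and 2. It was reached in Honey libraries alone by 20 models, in Pollen libraries alone by 3 and in Brood libraries alone by 1. A model that entered through 1 group had to be high there, so its difference from the other groups is a description. There were 15 that reached the minimum in 1 library alone, 10 of them in Honey 1, the deeper Honey library. Only 6 reached it in all 6 libraries. Just inside the threshold, the 3 lowest models had 10116, 10134 and 10935 fragments in their highest library, and the 3 nearest left out had 9812, 9756 and 9731.

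The 6 models above 10000 fragments in every library differed from each other in their pattern over the groups. Their levels are given in CPM, fragments scaled to a common library size by TMM, which sets the middle of all models level across libraries. The change between groups and its adjusted p come from edgeR's quasi-likelihood test over all 6943 models tested, and a call is an adjusted p under 0.05.

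The first of them, gene5402, had 397025 and 340069 CPM in Brood, 200239 and 142849 CPM in Pollen, and 64792 and 87216 CPM in Honey. Its groups did not overlap in any comparison. It was 4.85-fold higher in Brood than in Honey (95% interval 1.90 to 12.4; log2 change 2.28, SE 0.62; adjusted p = 0.0081). The call was lost without either Brood library, in limma on FPKM and with the trend of counts over model length removed, which left a log2 change of 0.27. The steps between neighbouring groups were not called, with log2 changes of 1.10 for Brood over Pollen (adjusted p = 0.144) and 1.17 for Pollen over Honey (adjusted p = 0.298).

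The next model along the chromosome whose ID is a gene number is also among the 47. Models added by the authors were not counted between them. This neighbour lies on the same strand of linkage group 6 at 15416369 to 15418677, 8255 bases downstream of gene5402, and has a length of 1536 bases. It had 14504 and 13395 CPM in Brood, 4957 and 3921 CPM in Pollen, and 4738 and 9835 CPM in Honey. Unlike that of gene5402, its mean was not lower in Honey than in Pollen, and its Pollen and Honey libraries overlapped. It was 3.14-fold higher in Brood than in Pollen (1.52 to 6.48; log2 change 1.65, SE 0.48; adjusted p = 0.0145), a call lost without either Brood library and without Pollen 2.

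The model gene418, on linkage group 1 at 6394567 to 6446905, stood apart in Brood alone. It had 19798 and 15907 CPM in Brood, 5391 and 3675 CPM in Pollen, and 3681 and 4361 CPM in Honey. Pollen and Honey overlapped, and both Brood libraries were above them. The change was 3.94-fold for Brood over Pollen (1.99 to 7.78; log2 1.98, SE 0.45; adjusted p = 0.00431) and 4.44-fold for Brood over Honey (2.24 to 8.81; log2 2.15, SE 0.46; adjusted p = 0.00178). Both calls held in all 16 alternatives, but with library totals only the log2 change for Brood over Honey was 0.81.

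The opposite order was seen in gene202, on linkage group 1 at 3291823 to 3297146. It had 7628 and 5371 CPM in Brood, 15800 and 11892 CPM in Pollen, and 25524 and 32371 CPM in Honey, with no overlap between groups. It ranked 15 and 15 in Brood, 10 and 9 in Pollen, and 2 and 2 in Honey, where it was second only to gene5402. It was 4.45-fold lower in Brood than in Honey (2.14 to 9.27; log2 change -2.15, SE 0.49; adjusted p = 0.00268), a call lost without Brood 2. Over the alternatives the log2 change ran from -3.50 to -1.52. Its steps of -1.09 for Brood over Pollen and -1.06 for Pollen over Honey on the log2 scale were not called (adjusted p = 0.0731 and 0.225).

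The other two of the 6 were not called in any comparison. The model on linkage group 6 at 8887054 to 8888190, of 288 bases, had 22885 and 18326 CPM in Brood, 37898 and 16128 CPM in Pollen, and 12105 and 16386 CPM in Honey. Its Pollen libraries spanned those of Brood and overlapped those of Honey, while Honey 1 lay below both Pollen libraries. The model on linkage group 5 at 13088155 to 13092644 had 7814 and 5460 CPM in Brood, 7378 and 5961 CPM in Pollen, and 3601 and 6022 CPM in Honey, and all 3 groups overlapped. For Brood over Honey the fold was 1.45 (95% interval 0.655 to 3.20) for the first and 1.38 (0.710 to 2.68) for the second, so a change of more than 2-fold up was not excluded by either interval.

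Some of the most abundant models were abundant in only some groups. One of them, gene10274 (linkage group 13, 7932097 to 7935133), was high in Pollen. It had 2209 and 1632 CPM in Brood, 57323 and 90824 CPM in Pollen, and 2025 and 4448 CPM in Honey, and it held 0.140% and 0.112%, 4.57% and 9.34%, and 0.374% and 0.676% of fragments in Brood, Pollen and Honey. The Pollen libraries stood above all others, while Brood and Honey overlapped. It was 38.6-fold lower in Brood than in Pollen (14.6 to 102; log2 change -5.27, SE 0.65; adjusted p = 0.000163) and 22.9-fold higher in Pollen than in Honey (8.94 to 58.6; log2 4.52, SE 0.63; adjusted p = 0.0013). Both calls held in all 16 alternatives, with log2 changes of -5.79 to -4.89 and 3.73 to 5.19.

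The widest range was that of gene13370, on an unplaced scaffold at 35 to 1903. It had 181409 and 204021 fragments in Brood, 10544 and 9634 in Pollen, and 124 and 61 in Honey. This was 5.24% and 5.79% of the library in Brood, 0.254% and 0.272% in Pollen, and 0.00301% and 0.00221% in Honey. Each group stood well apart from the next and the 2 libraries of each group lay close together. The change was 28.7-fold for Brood over Pollen (12.4 to 66.3; log2 4.84, SE 0.56; adjusted p = 0.000129), 188-fold for Pollen over Honey (72.3 to 491; log2 7.56, SE 0.64; adjusted p = 0.000116), and 12.40 on the log2 scale for Brood over Honey (SE 0.76; adjusted p = 1.38e-06). These 3 calls held in all 16 alternatives, with log2 changes of 4.18 to 5.15, 6.65 to 7.69 and 11.04 to 12.70 in the same order.

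A short model of 258 bases on linkage group 15, at 6115532 to 6120177, also followed the order Brood, Pollen, Honey. It had 16012 and 13425 CPM in Brood, 8806 and 8320 CPM in Pollen, and 1583 and 1949 CPM in Honey. Honey was far below both other groups, and was called lower than each. The log2 change was 3.06 for Brood over Honey (SE 0.46; adjusted p = 0.000186) and 2.28 for Pollen over Honey (SE 0.44; adjusted p = 0.00966), while that for Brood over Pollen was 0.78 (adjusted p = 0.141). The call for Pollen over Honey was lost without Honey 1 and in limma on FPKM. Removal of the length trend left a log2 change of 1.09 for Brood over Honey (adjusted p = 0.0489). Per length this model was at rank 2 or 3 by FPKM in the Brood and Pollen libraries, and at ranks 4 and 3 in Honey 1 and 2.

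A longer model on the same linkage group, at 8188432 to 8198870 with 7990 bases, was lower in Brood. It had 2488 and 2445 CPM in Brood, 6607 and 5715 CPM in Pollen, and 4905 and 9893 CPM in Honey. Pollen lay inside the range of Honey. It was 2.50-fold lower in Brood than in Pollen (1.27 to 4.91; adjusted p = 0.0291) and 3.00-fold lower in Brood than in Honey (1.52 to 5.93; adjusted p = 0.0102), but with the length trend removed both log2 changes turned positive, at 0.29 and 0.23. Both calls were also lost without either Brood library, the first without Pollen 1 and the second without Honey 2.

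Of the models that entered through Honey alone, gene4810 and gene8463 were lowest in Pollen. The model gene4810, on linkage group 6 at 189128 to 190923, had 2025 and 2786 CPM in Brood, 578 and 1255 CPM in Pollen, and 8448 and 6612 CPM in Honey. The model gene8463, on linkage group 10 at 12829933 to 12831074, had 3224 and 2316 CPM in Brood, 570 and 848 CPM in Pollen, and 3644 and 3486 CPM in Honey. Both were called lower in Pollen than in Honey, by 8.22-fold for gene4810 and 5.03-fold for gene8463. Both were called higher in Brood than in Pollen, by 2.62-fold and 3.91-fold, and these last calls were lost with the length trend removed. That of gene4810 was also lost without either Brood library, without Pollen 1 and with library totals only, and the call of gene8463 between Pollen and Honey was lost in limma on FPKM. The model gene4810 overlaps a model on the opposite strand, whose fragments came to at most 0.183 of its own. No source used here says whether counting used strand, so reads of such overlapping models may not be told apart.

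The lowest in Brood were long models that entered through Honey. The model gene11475, of 18785 bases on linkage group 15 at 7441103 to 7507563, had 81.3 and 68.0 CPM in Brood, 764 and 1309 CPM in Pollen, and 1592 and 1384 CPM in Honey. It was 13.9-fold lower in Brood than in Pollen (log2 change -3.79) and 19.9-fold lower in Brood than in Honey (log2 change -4.32). Both calls held in all 16 alternatives, but the log2 change for Brood over Pollen was -1.44 once the length trend was removed. The model reached 10000 fragments in Honey 1 alone.

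**Figure D3:**
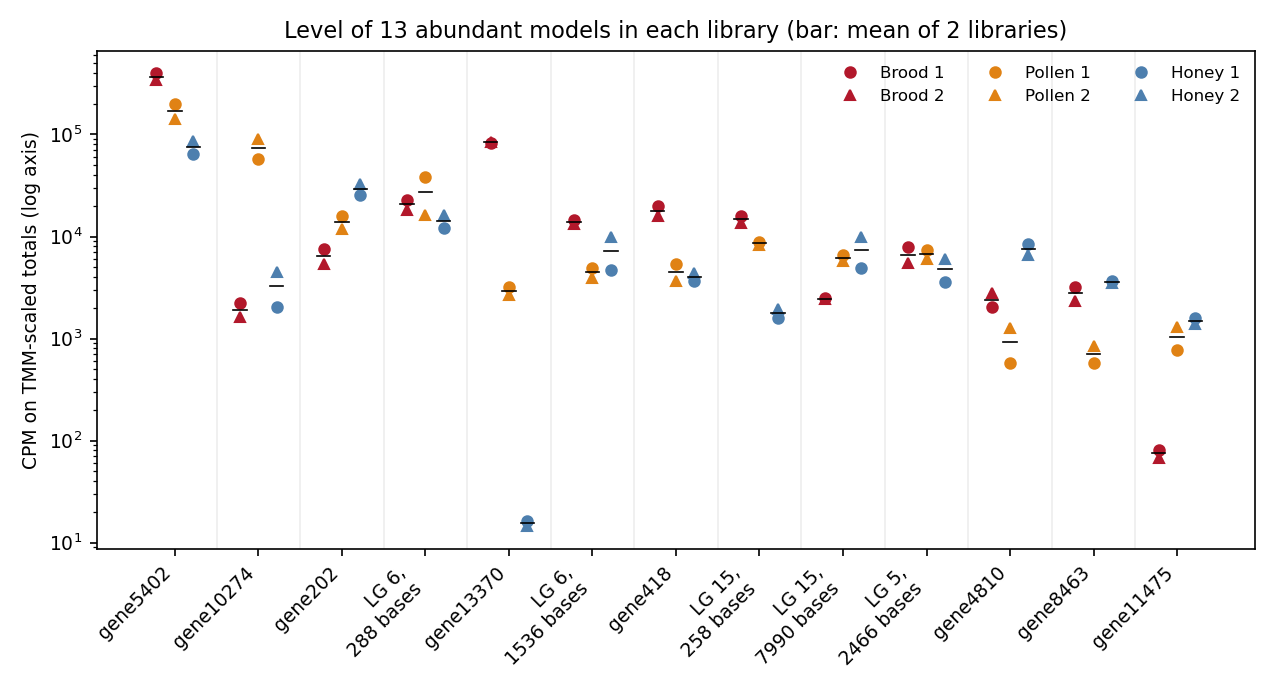
Level of 13 abundant models in each library, in CPM on TMM-scaled totals on a log axis, with 1 point per library and a bar at the mean of each group of 2. Within each model Brood is left, Pollen in the middle and Honey right, and models not given by ID are named by linkage group (LG) and length. The model gene5402 lies above all others in every library, gene10274 is high in Pollen alone, and gene13370 runs down to 16.3 and 14.5 CPM in Honey.

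Between Pollen and Honey, which differ in food, fewer of the 47 were called than in the other comparisons. Of the 47, 6 (12.8%) were called, 4 higher and 2 lower in Pollen. Of all models tested, 6.16% were called, 4.32% higher and 1.84% lower. With 2 libraries a group, a model without a call may still differ. The 4 higher were gene10274, gene13370, the model of 258 bases on linkage group 15 and another on that linkage group at 6014700 to 6016275, which had 7855 and 4015 CPM in Pollen and 347 and 367 CPM in Honey. The 2 lower were gene4810 and gene8463. The median log2 change was 0.04 over the 47 and -0.01 over all models tested. The groups did not overlap for 25 of the 47, against 54.7% of all models tested. Under scaling by library totals only, the median of all models moved to -0.90, and 28 of the 47 were called, 4 higher and 24 lower, where 1.96% of all models were called higher and 33.3% lower.

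Between Brood and Pollen, which differ in whether the queen laid, more of the 47 were lower in Brood than higher. Of the 47, 29 were called, 8 higher and 21 lower in Brood, where 48.4% of all models tested were called, 22.4% higher and 26.0% lower. Besides gene13370 and gene418, the higher ones included a short model on linkage group 8 at 7859645 to 7860101, with 9440 and 7290 CPM in Brood and 2757 and 2339 CPM in Pollen. It was the one model of the 47 that reached 10000 fragments in Brood alone, so its level in Brood chose it, and its call was lost with the length trend removed, which left a log2 change of 0.46. Apart from gene10274, the largest falls were in long models, with gene11475 first among them. The 20 models that reached 10000 fragments in Honey alone gave 12 of the lower and 3 of the higher calls. The 3 of Pollen alone gave 2 of the lower and 0 of the higher. The rule chose these models by level, so the surplus of lower calls is a description. The median log2 change was -0.87 over the 47 and -0.00 over all models tested. The groups did not overlap for 43 of the 47, against 75.4% of all models tested. Without Brood 1 or without Brood 2, 16 of the 47, or 34.0%, were called each time, against 31.5% and 40.0% of all models tested without Brood 1 and without Brood 2.

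Between Brood and Honey, which differ in both food and queen, 29 of the 47 were called, 9 higher and 20 lower in Brood, where 57.2% of all models tested were called, 28.4% higher and 28.8% lower. The 29 are 61.7% of the 47, near the share of all models. Higher in Brood were gene5402, gene13370, gene418 and 6 others, among them a model on linkage group 1 at 3115841 to 3117194 with 5991 and 4924 CPM in Brood and 503 and 931 CPM in Honey. Lower were gene202, gene11475, 17 others and gene4810, whose call was lost without Brood 1. The median log2 change was -0.66 over the 47 and 0.05 over all models tested, and the groups did not overlap for 38 of the 47, against 80.0% of all models tested. Scaled by library totals alone, the median of all models moved to -1.30, and 6 of the 47 were called higher and 33 lower, where 4.39% of all models were called higher and 53.4% lower.

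The 3 comparisons share libraries, so the calls are set side by side here without a measure of their overlap. The most frequent pattern, in 17 of the 47, was no call between Pollen and Honey and lower in Brood than in both. Another 12 were called in no comparison. The model gene13370 was the only one called higher in all 3, and the model at 6014700 to 6016275 on linkage group 15 was the only one called higher in Pollen than in Honey, lower in Brood than in Pollen and higher in Brood than in Honey. Its call for Brood over Pollen was lost without Brood 1. Its call for Brood over Honey was lost with library totals only (log2 change 0.75) and with the length trend removed (1.05), so this pattern did not hold there. By mean CPM, 12 of the 47 were highest in Brood, 15 in Pollen and 20 in Honey. By share of fragments, 8 were highest in Brood, 5 in Pollen and 34 in Honey. The order of groups within a model thus depended on the scale for some of the 47.

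The 47 held more long models than the rest, although their lengths varied widely. Their median length was 2394 bases, with a range of 237 to 39567, against 1634 bases over the 9495 models with any fragment. Of the 47, 15 were longer than 5000 bases, or 31.9%, against 8.53% of those models, while 8, or 17.0%, had 700 bases or less, against 14.8%. The rule used fragments that were not scaled by length, and its part in these shares was not tested.

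The direction of change ran with length. All 15 models longer than 5000 bases had a lower CPM in Brood than in Pollen and in Honey, and 14 were called lower in each of these comparisons. Of all models of that length, 71.7% were called lower in Brood than in Pollen and 74.7% lower in Brood than in Honey. The one of the 15 not called lay on linkage group 16 at 1928948 to 1947286, with 1086 and 1007 CPM in Brood, 1281 and 1307 CPM in Pollen, and 1489 and 1522 CPM in Honey. Of the 8 models of 700 bases or less, 4 were called higher in Brood than in Pollen and 0 lower, and 4 were called higher in Brood than in Honey and 1, gene4810, lower. Of all 700 models tested of that length, 345 (49.3%) were called higher and 27 lower in Brood than in Pollen, and 479 (68.4%) higher and 35 lower in Brood than in Honey, so 4 of 8 is near this share in the first comparison and below it in the second. Between Pollen and Honey, 0 of the 15 long models were called, where 2.36% of all models of that length were called higher and 3.67% lower. With library totals only, 13 of the 15 were called lower, against 60.5% of all models of that length.

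Across the 47 models, which are not independent replicates, length and log2 change had a Spearman correlation of -0.70 for Brood over Pollen, -0.79 for Brood over Honey and -0.52 for Pollen over Honey. Over all 6943 models tested it was -0.56, -0.59 and -0.27 in the same order. With each library's trend of counts over length removed, the median log2 change of the 15 long models was 0.00 for Brood over Pollen and 0.03 for Brood over Honey. The number of the 47 called was then 15 for Brood over Pollen, 5 higher and 10 lower, and 18 for Brood over Honey, 8 higher and 10 lower. These are 31.9% and 38.3% of the 47, near the 28.0% and 37.3% of all models tested that were called in the same way. The calls that held in all 16 alternatives in both of these comparisons were, among the higher ones, gene13370 and gene418. Among the lower ones they were gene11475 and the models on linkage group 5 at 13861957 to 13885266 and on linkage group 11 at 14476746 to 14515224. Their changes were smaller once the length trend was removed. For Brood over Honey the log2 change was then -1.70 for gene11475, -1.04 for the model on linkage group 5 (-3.56 before) and -1.81 for that on linkage group 11 (-3.70 before). The cause of the length trend was not tested.

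**Figure D4:**
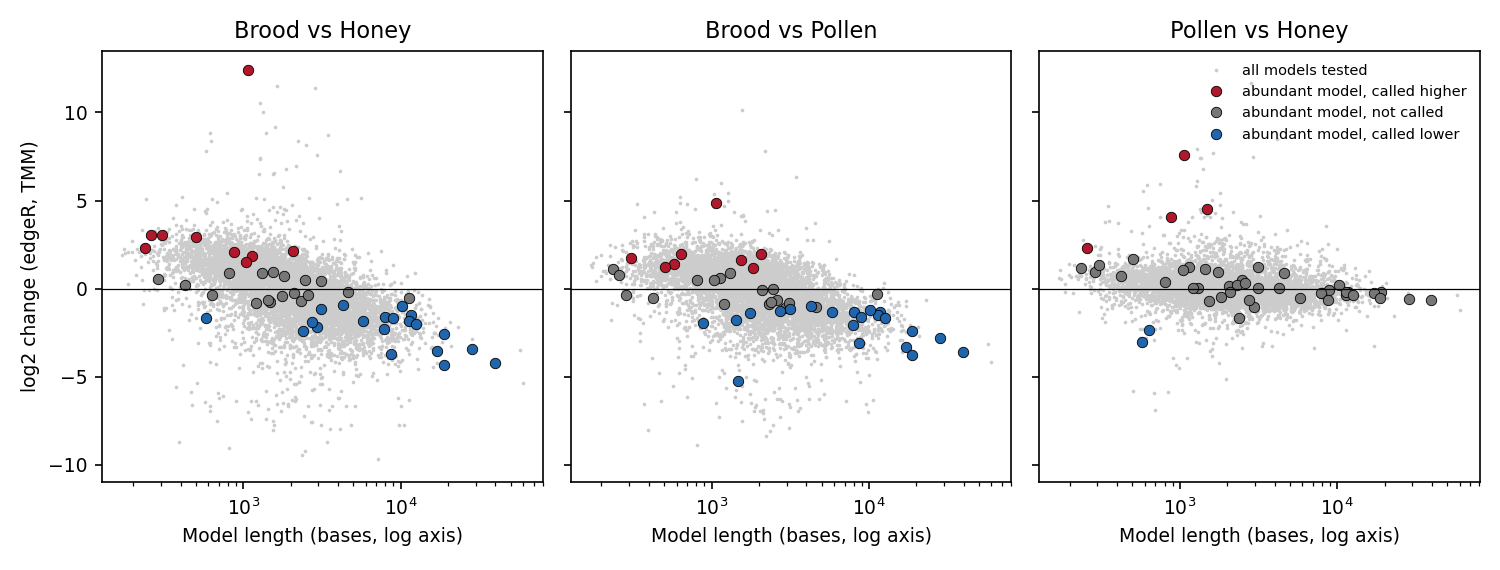
The log2 change of each model tested (grey) and of the 47 abundant models (large points) against model length in bases on a log axis, for Brood vs Honey, Brood vs Pollen and Pollen vs Honey. Red points were called higher, blue points lower and dark grey points not called by edgeR, and 3, 1 and 3 models lie outside the plotted range in the same order. All 15 abundant models longer than 5000 bases lie below 0 in both Brood panels, as does the bulk of the other models of that length.

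Among the long models, 3 had similar levels: gene11475 and the 2 models on linkage groups 5 and 11 named above. The 2 models on linkage groups 5 and 11 that kept their calls had 161 and 119 CPM and 141 and 127 CPM in Brood, 1201 and 1594 CPM and 880 and 1389 CPM in Pollen, and 1565 and 1727 CPM and 1608 and 1874 CPM in Honey. With gene11475 they correlated at 0.995 and 0.997 in log2 CPM over the 6 libraries, which is a description of these libraries. The model on linkage group 11 overlaps another model on the opposite strand whose fragments came to as much as 1.62 times its own in some library. Of the 47, 18 overlap another model, and for 3 of them the overlapping fragments reached 90% or more of their own.

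The pattern of gene5402 was most like those of 2 other short models. These were the models on linkage group 1 at 3115841 to 3117194, of 504 bases, and on linkage group 8 at 7859645 to 7860101, of 307 bases, with correlations of log2 CPM over the 6 libraries of 0.993 and 0.989. Then came gene13370, at 0.973. The pattern of gene10274 was most like that of the model on linkage group 7 at 7548304 to 7562914, with a correlation of 0.928, but that model reached only 4076 and 2833 CPM in Pollen. The models gene4810 and gene8463 were most like each other, at 0.892, and the next highest correlation of gene4810 was 0.431.

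The 47 models were spread over 16 linkage groups and unplaced scaffolds. Linkage group 15 held 8 of them, or 17.0%, against 5.68% of the models with any fragment. Counting only models whose ID is a gene number, no pair of the 47 but gene5402 and its neighbour was adjacent.

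The spread between the 2 colonies of a group differed between models. The ratio of the higher to the lower CPM of a group had a median over the 47 of 1.22 in Brood, 1.38 in Pollen and 1.35 in Honey. It was over 2-fold for 1 model in Brood, 4 in Pollen and 10 in Honey. The widest was the model on linkage group 6 at 14625268 to 14663656, with 641 and 629 fragments in Brood, 1658 and 1538 in Pollen, and 1913 and 11140 in Honey. It is among the 47 through Honey 2 alone, and its call as lower in Brood than in Honey was lost without that library.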

How the data were processed

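Gland RNA was sequenced in 6 libraries, 2 per group, 1 colony each. Per the file headers, the authors gave for each gene model a raw fragment count, a normalized count (from its values a scaled signal, deposited as such and not used for tests), an FPKM value and a length. Aligner, counting tool, strand use and genome build: not given in the sources used here. Library totals of the deposited counts were 3459632 and 3525248 in Brood, 4153354 and 3546705 in Pollen, and 4120794 and 2764870 in Honey.

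The quasi-likelihood test of edgeR 4.0.16 (R 4.3.3) was run on the 6943 models that filterByExpr kept at a minimum count of 10, with TMM scaling. A single fit of the 6 libraries had 3 group means, which left 3 residual degrees of freedom. Tests were two-sided, with Benjamini-Hochberg adjustment over all models and a threshold of 0.05. The SE of a log2 change was derived from the change and its quasi-likelihood F, and the 95% intervals rest on it. Libraries of a group differed by 24.4 to 106 times the sampling variance, so no pair agreed within sampling noise. DESeq2 1.42.0, limma 3.58.1 on log2(FPKM + 1), other scalings and filters, removal of a lowess trend over length and leaving out libraries were alternatives. Leaving out models listed at 0 beside 10000 or more fragments was chosen after seeing the data.

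The models and lists were chosen with earlier results of these data known. By ID are given, for each comparison and direction, the called model with most fragments and, among the others with groups that do not overlap, the one with the largest change. The 10 models with the largest mean share, those above 10000 fragments in all 6 libraries and those nearest the threshold are described too. Others singled out were chosen after their values were seen. No sequence could be matched to the IDs, and none is shown.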

Additional observations from a re-analysis of the deposited data

How the results depend on the processing

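The number of the 47 abundant models called between Pollen and Honey (6) became 28 with library totals only and 13 with DESeq2. These are 59.6% and 27.7% of the 47, against 35.2% and 5.93% of all models tested. The number between Brood and Pollen (29) became 15 with the length trend removed, and that between Brood and Honey (29) became 18. These are 31.9% and 38.3% of the 47, against 28.0% and 37.3% of all models tested. With 1 library left out at a time, 16 to 31 were called for Brood vs Pollen, 21 to 29 for Brood vs Honey and 6 to 7 for Pollen vs Honey, where the single library left in a group is taken to vary as the rest do. The share of all models called moved over these fits too, so these ranges alone do not set the 47 apart. The causes were not tested. With the replicate number as a block, 27 were called for Brood vs Pollen, 28 for Brood vs Honey and 6 for Pollen vs Honey. These are 57.4%, 59.6% and 12.8% of the 47, against 47.7%, 56.2% and 6.27% of all models tested. Same-numbered libraries deviated together at correlations of -0.108 (Pollen and Honey), 0.167 (Brood and Pollen) and 0.0421 (Brood and Honey). With so few libraries a group, these values cannot decide whether same-numbered libraries share more than a number. By the sample labels, the later-numbered library of each group was also the older.

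The share held by the 47 was 60.3% in Brood and 46.5% in Pollen without the tandem region in the denominator, and 87.0% in Brood, 83.0% in Pollen and 81.7% in Honey of summed FPKM. That of gene5402 was 36.7% in Brood and 19.2% in Pollen without the region, and 76.9% in Brood, 67.7% in Pollen and 65.4% in Honey of summed FPKM. Over single libraries the shares of the 47 were 38.7% to 41.0% in Brood, 35.6% to 38.3% in Pollen and 36.8% to 40.1% in Honey, and those of gene5402 were 23.4% to 25.1%, 14.7% to 16.0% and 12.0% to 13.3%.

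Among the 13 models shown by level, 555 values of the log2 change kept direction and side of the threshold, 25 lost the threshold, 23 gained it and 21 changed sign. With library totals only, Pollen over Honey became -0.014 for the model of 288 bases on linkage group 6, -0.73 for gene418 and -0.40 for the model of 2466 bases on linkage group 5, and Brood over Honey became -0.80 and -0.86 for the first and the last of these and -0.37 for the neighbour of gene5402. With the length trend removed, Brood over Pollen became -0.21 for gene5402, -0.53 for the model of 258 bases, 0.29 for that of 7990 bases and 0.27 for that of 2466 bases, and Brood over Honey became -1.37 for that of 288 bases and 0.23 for that of 7990 bases. Over single libraries left out, Pollen over Honey ran from -0.13 (without Pollen 1) to 0.42 for gene418 and from -0.69 to 0.33 (without Honey 2) for the model of 7990 bases, and Brood over Pollen ran from -0.87 to 0.34 (without Pollen 1) for the model of 288 bases. For the model of 2466 bases, at -0.01 as reported, Brood over Pollen was 0.30 with a minimum count of 50, 0.0032 without models listed at 0, 0.0076 in limma on FPKM and -0.28 to 0.22 over single libraries left out, above 0 without Brood 2, Honey 1 or Pollen 1. The smallest called change among the 47 was -0.96 on the log2 scale, for Brood over Honey, and smaller ones were called in some alternatives.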

Other observations

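The deposited FPKM of other abundant models also departed from what their fragments and listed length would give. For the model of 288 bases on linkage group 6 at 8887054 to 8888190 it was 2.08 to 2.24 times that value in the 6 libraries.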
